A study of Rattus norvegicus and Bos taurus with 6 samples.

Results

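Axon guidance genes are described here as 68 genes, chosen by symbol. They are every gene whose symbol starts with Sema, Plxn, Epha, Ephb, Efna or Efnb, with Nrp1 and Nrp2, Slit1 to Slit3, Robo1 to Robo4, Ntn1, Ntn4, Unc5a to Unc5d, Dcc and Neo1. The tables hold 38488 gene names for the rat Parse libraries, 25409 for the rat 10x Genomics library and 34456 for the cow library, and all 68 genes were listed in each. The level of expression was not used to choose them. Single-nucleus RNA-seq was performed on snap-frozen fat, with 1 library per condition and 6 in all. The rat libraries came from male Dahl SS rats (SS/HsdMcwiCrl) on normal diet. They are mesenteric perivascular adipose tissue (mesPVAT) on the 10x Genomics platform (mesPVAT 10x, batch 1, other nuclei isolation) and, on the Parse platform in batch 2, mesPVAT (mesPVAT Parse), retroperitoneal fat (RP fat), perivascular fat of the thoracic aorta (taPVAT) and subscapular brown fat (BAT). The cow library is right-flank subcutaneous white fat of a lactating Holstein (cow sWAT), also Parse, batch 2. No agent or allele was compared, the cow was on a lactation diet, and whether rat libraries share animals is not stated.

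Guidance ligands steer cells by attraction or repulsion, and most act on the actin skeleton through their receptors. Semaphorins bind plexins, and most secreted class 3 semaphorins also need neuropilins. Slits bind Robo receptors, netrins bind Dcc, neogenin and the Unc5 receptors, and ephrins on one cell bind Eph receptors on the next. The families were named for growing axons, and many members also act between endothelial cells, the mural cells around them and stromal cells, in the growth and patterning of vessels.

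Levels are UMIs (unique transcripts) summed over nuclei and scaled to the total of the library or class, as CPM (counts per 10 to the power of 6 UMIs). The 6 libraries held 2297 to 5887 nuclei and 845316 to 16827260 UMIs, with a median of 161 UMIs per nucleus in mesPVAT 10x, 346 in mesPVAT Parse, 213 in RP fat, 1246 in taPVAT, 1706 in BAT and, for the cow, 3530. In plots of barcodes ranked by UMIs, the study saw no clear inflection point for mesPVAT or RP fat on Parse. It reads this as difficulty in telling true nuclei from background RNA, and holds rat white fat too poor in genes for firm cell annotation. Every deposited barcode counts as a nucleus here, and the part of background RNA in the class levels was not tested. No nuclear barcode was shared between libraries. With at least 10 UMIs, 45 of the 68 genes were measured in mesPVAT 10x, 63 in mesPVAT Parse, 57 in RP fat, 61 in taPVAT, 65 in BAT and, for the cow, 66. Nuclei were sorted into 5 classes by a single gene each: Plin1 (lipid droplet coat of adipocytes), Ptprb (endothelial phosphatase), Pdgfra (receptor of stromal progenitors), Notch3 (receptor of mural cells) and Ptprc (CD45 of immune cells). A nucleus belonged to a class when it held at least 1 UMI of that gene and none of the other 4. Nuclei with several class genes, which may be doublets, were left out and made up 0.425% of mesPVAT 10x, 6.80% of mesPVAT Parse, 2.21% of RP fat, 21.9% of taPVAT, 19.7% of BAT and 31.9% of cow sWAT. Their share of the UMIs was larger: they held 10892864 of 16827260 UMIs in the cow, 1956692 of 5100216 in taPVAT and 2182153 of 6317970 in BAT. Nuclei with none of the 5 genes made up 12.2% (BAT) to 84.8% (mesPVAT 10x). The smallest classes were 18 Pdgfra-only nuclei in BAT and 36 Notch3-only nuclei in mesPVAT 10x. In such classes few UMIs stand for much CPM: 3 UMIs are 409 CPM in Notch3-only nuclei of mesPVAT 10x and 3.32 CPM in those of the cow.

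The classes were checked against lists of other markers of each cell type. Each list was highest in the class of its own type in every library, with 1 exception. In RP fat the 11 immune markers summed to 818 CPM in Ptprc-only nuclei and 1168 CPM in Pdgfra-only nuclei. Mrc1, Csf1r, Lyz2 and Cd247 were at 0 in the former. RP fat's Ptprc-only nuclei are therefore called only by their gene. In Notch3-only nuclei of mesPVAT 10x, the adipocyte markers summed to 9126 CPM and the mural markers to 953 CPM. The name mural rests on Notch3 there. The separation was narrow in RP fat throughout, at 1.70 to 3.08 times the next class for the other 4 lists. It was also narrow in mesPVAT Parse for the immune (1.68 times), endothelial (2.25) and stromal (2.28) lists. In mesPVAT 10x the mural list stood at 1.3 times the next class and the adipocyte list at 2.02 times. Skeletal muscle markers (Ttn, Neb, Actn2, Ryr1, Myh4, Ckm) summed to 3769 CPM in Notch3-only nuclei of taPVAT, with Myh4 and Ckm at 0, and to 2478 CPM in those of BAT, with Actn2, Ryr1, Myh4 and Ckm at 0. The other classes of these 2 libraries held 0 to 882 CPM of them. The numbers of nuclei and the depth stored under the labels mesPVAT and RP fat differ from those the study gives for these depots. Median genes per nucleus were 303.5 under mesPVAT Parse and 197 under RP fat, and the largest nucleus held 41374 and 5611 UMIs. Each of these values lies nearer the one the study gives for the other depot. Whether both Parse files were exchanged was not tested, and both are called by their labels. Each direction between them, and each comparison of mesPVAT on 2 platforms, rests on those labels.

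Summed over the 68 genes, guidance transcripts were a small share of every library. They made up 7859 CPM (95% Poisson interval 7704 to 8017) of mesPVAT 10x, 5793 CPM (5677 to 5909.8) of mesPVAT Parse, 7254 CPM (7074 to 7438) of RP fat, 5291 CPM (5228 to 5354) of taPVAT, 5016 CPM (4961 to 5072) of BAT and 5776 CPM (5739.9 to 5813) of cow sWAT. These intervals cover counting error only, and with 1 library each no difference between tissues could be tested. In a sum over nuclei, fewer cells of a type and less RNA per cell cannot be told apart.

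By CPM, which is not corrected for gene length, Slit3, a secreted Slit, had the highest mean over the 5 rat libraries. It was found at 1918 CPM in mesPVAT 10x, 575 in mesPVAT Parse, 631 in RP fat, 771 in taPVAT, 882 in BAT, and 567 CPM in cow sWAT. Mesenteric PVAT on the 10x Genomics platform was the highest and the other 5 libraries lay within 567 to 882 CPM. Efna5, a lipid-anchored ephrin, followed at 1332 CPM in mesPVAT 10x, 195 in mesPVAT Parse, 189 in RP fat, 823 in taPVAT, 742 in BAT, and 318 CPM in cow sWAT. The brown fats and mesPVAT 10x were high and both white Parse libraries of the rat were low. Nrp1, the co-receptor of class 3 semaphorins and of VEGF, reached 276 CPM in mesPVAT 10x, 322 in mesPVAT Parse, 269 in RP fat, 1108 in taPVAT, 1078 in BAT, and 718 CPM in cow sWAT. Here the brown fats and the cow were high and the 3 white rat libraries low, so Efna5 and Nrp1 did not share their order: in mesPVAT 10x Efna5 was among the highest and Nrp1 among the lowest.

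Nuclear RNA holds introns, so a long gene can yield more UMIs, and an order of genes by CPM is an order of UMIs only. Per kilobase of gene span in RefSeq (GRCr8), Plxnd1, the endothelial plexin that binds Sema3e, had the highest rat mean, with 6.35, 4.77, 3.61, 5.6 and 5.52 CPM per kb in mesPVAT 10x, mesPVAT Parse, RP fat, taPVAT and BAT in that order. Nrp1 held 1.78, 2.08, 1.73, 7.14 and 6.95 CPM per kb in the same order. Robo4, which spans only 13.8 kb, stood at 1.99, 3.85, 2.32, 3.8 and 3.96 CPM per kb, while Slit3, spanning 585 kb, stood at 3.28, 0.983, 1.08, 1.32 and 1.51. On this scale Plxnd1 was above Slit3 in all 5 libraries, and Nrp1 and Robo4 were in all but mesPVAT 10x.

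The remaining genes of the top 12 are mostly receptors. Plxna2, a receptor of Sema6 ligands, was at 154 CPM in mesPVAT 10x, 213 in mesPVAT Parse, 173 in RP fat, 354 in taPVAT, 356 in BAT, and 271 CPM in cow sWAT. Plxnd1 was at 256 CPM in mesPVAT 10x, 193 in mesPVAT Parse, 146 in RP fat, 226 in taPVAT, 223 in BAT, and 278 CPM in cow sWAT. Plxna4, a plexin of sensory and sympathetic axons, was at 480.0 CPM in mesPVAT 10x, 279 in mesPVAT Parse, 309.9 in RP fat, 179.6 in taPVAT, 97 in BAT, and 117 CPM in cow sWAT. Plxna4 was therefore lowest in BAT and highest in mesPVAT 10x, the reverse of Plxna2. Nrp2, co-receptor of Sema3f and VEGF-C, was at 33.1 CPM in mesPVAT 10x, 120.1 in mesPVAT Parse, 106 in RP fat, 228 in taPVAT, 224 in BAT, and 272 CPM in cow sWAT. Its lowest value was in mesPVAT 10x. Sema3c, a secreted ligand of neuropilins, was at 611 CPM in mesPVAT 10x, 91.1 in mesPVAT Parse, 103 in RP fat, 39.2 in taPVAT, 14.1 in BAT, and 396 CPM in cow sWAT. High values were in mesPVAT 10x and the cow, with BAT lowest. Ephb1, a receptor of the B ephrins, was at 182 CPM in mesPVAT 10x, 169.6 in mesPVAT Parse, 299 in RP fat, 34.3 in taPVAT, 24.1 in BAT, and 49.9 CPM in cow sWAT, high in the white fats of the rat and low in the others.

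**Figure D1:**
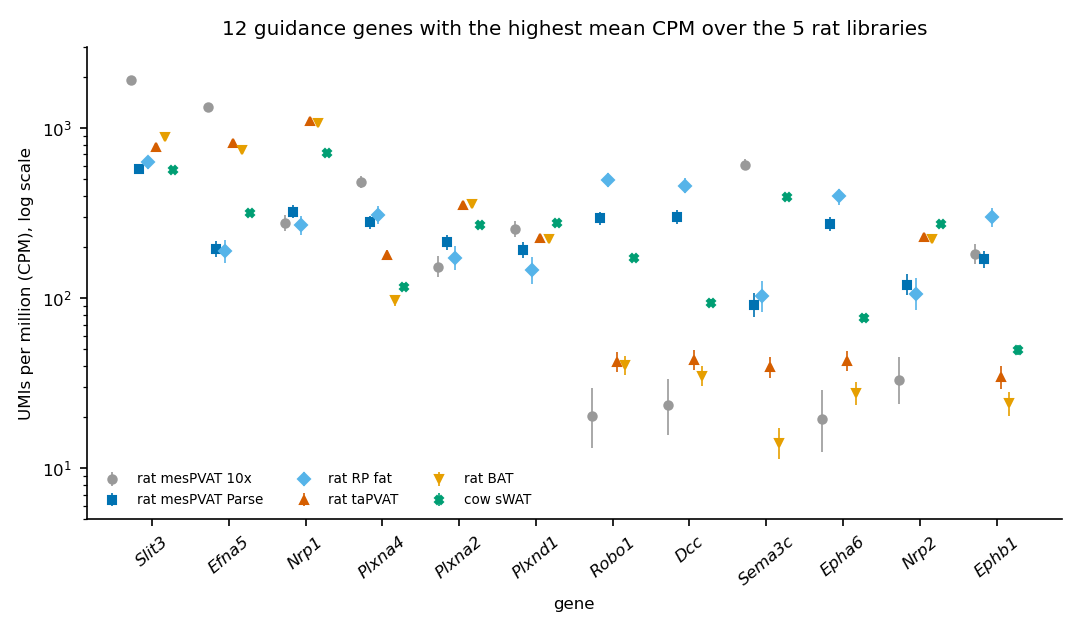
CPM on a log axis of the 12 guidance genes with the highest mean over the 5 rat libraries, in each of the 6 libraries; bars are 95% Poisson intervals (counting error only). Nrp1 is highest in taPVAT and BAT (1108 and 1078 CPM), while Robo1, Dcc and Epha6 are highest in RP fat (498, 458 and 396 CPM) and lowest in mesPVAT 10x.

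By family, the sums moved in different ways between tissues. The neuropilins summed to 309 CPM in mesPVAT 10x, 442 in mesPVAT Parse, 375 in RP fat, 1336 in taPVAT, 1302 in BAT, and 991 CPM in cow sWAT. The 5 A ephrins, nearly all of it Efna5, summed to 1348 CPM in mesPVAT 10x, 217 in mesPVAT Parse, 225 in RP fat, 835 in taPVAT, 752 in BAT, and 349.6 CPM in cow sWAT. The neuropilins were high in the brown fats and the cow, and the A ephrins in the brown fats and mesPVAT 10x. Of the receptors, the 4 Robo genes summed to 57.4 CPM in mesPVAT 10x, 594 in mesPVAT Parse, 868 in RP fat, 134 in taPVAT, 134 in BAT, and 407 CPM in cow sWAT. The 9 Epha receptors summed to 217 CPM in mesPVAT 10x, 621 in mesPVAT Parse, 916 in RP fat, 138 in taPVAT, 101 in BAT, and 306 CPM in cow sWAT, and the 6 netrin receptors to 394 CPM in mesPVAT 10x, 758 in mesPVAT Parse, 1095 in RP fat, 277 in taPVAT, 269.5 in BAT, and 399 CPM in cow sWAT. All 3 of these receptor families were highest in RP fat and next in mesPVAT Parse. The 9 plexins stayed between 794 and 1011 CPM in all 6 libraries.

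Which class of nuclei holds each gene was tested over the 5 rat libraries, with the class compared within its library against the mean of the other 4 classes. The test was edgeR's quasi-likelihood test on summed UMIs with Benjamini-Hochberg adjustment over all 11903 genes, and a gene was called raised or lowered at an adjusted p under 0.05. The libraries are single samples of different fats, so p measures the spread between these libraries. The 5 class comparisons share the same sums and are not independent. High levels in 1 class raise the mean against which each other class is set, so a lowered call can mirror a raised one. At 30 or more UMIs, 58 of the 68 genes were tested. The 10 not tested were Efna3, Efna4, Epha1, Epha8, Ephb3, Plxnb3, Robo3, Sema4a, Sema4f and Sema4g. Of the 58, 24 were raised in at least 1 class and 26 were called in none. The same counts over all genes tested were not made, so only the shares by class below have a background.

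Endothelial nuclei held the most raised guidance genes. There were 13 of 58 (22.4%), beside 5.23% of all genes tested, and 6 were lowered (10.3%, beside 1.34% of all genes). The median log2 fold change was 0.36 over the 58 and -0.02 over all genes. Both ligands and receptors were among the 13: Robo4, Sema6a, Epha4, Efnb2, Sema6b, Sema7a, Sema3g, Ephb4, Plxna2, Plxnd1, Ntn1, Plxna4 and Nrp2. In cow sWAT 10 of the 13 were above the mean of the other classes (share over all raised genes not counted), and Ntn1, Plxna4 and Nrp2 were not. With the cow added to the fit, these 3 lost their calls. The lowered count fell from 6 to 1 without BAT and to 1 without taPVAT. Over all genes it fell from 160 to 29 and 47 in the same order. TMM factors gave 16 raised and 3 lowered members. Over all genes they gave 788 raised and 116 lowered in place of 623 and 160.

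Robo4, the Robo receptor of endothelium that stabilizes vessels, had the largest fold. In Ptprb-only nuclei it was at 282 CPM in mesPVAT 10x, 143 in mesPVAT Parse, 131 in RP fat, 217 in taPVAT, 276 in BAT, and 365 CPM in cow sWAT. The mean of the other classes in the same order was 38, 40.3, 36, 21.3, 25.2 and 26.3 CPM (log2 fold change 3.10, SE 0.37, adjusted p = 9.43e-12). The endothelial value was the highest of the 5 classes in all 6 libraries. Sema6a, a membrane semaphorin that binds Plxna2 and Plxna4, was at 494 CPM in mesPVAT 10x, 231 in mesPVAT Parse, 168 in RP fat, 469 in taPVAT, 773 in BAT, and 463 CPM in cow sWAT. The other classes averaged 88.5, 84.6, 80.5, 62, 49.8 and 41.7 CPM in that order (log2 fold change 2.73, SE 0.31, adjusted p = 1.02e-12). It too was highest in endothelial nuclei in all 6 libraries, and RP fat showed the narrowest gap.

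Efnb2, the ephrin of arterial endothelium, and Ephb4, its receptor on veins, were both raised. Efnb2 was at 212 CPM in mesPVAT 10x, 61.2 in mesPVAT Parse, 18.7 in RP fat, 235 in taPVAT, 218 in BAT, and 223 CPM in cow sWAT, with the other classes at 3.92, 10.6, 29.2, 56.4, 28.7 and 38.4 CPM (log2 fold change 2.27, SE 0.39, adjusted p = 7.15e-06). RP fat went the other way, and the remaining rat libraries and the cow were higher in endothelial nuclei. Efnb2 is the 1 gene of the 68 whose Ensembl identifier differs between the Parse and 10x Genomics annotations. Ephb4 was at 247 CPM in mesPVAT 10x, 95.2 in mesPVAT Parse, 56.2 in RP fat, 133 in taPVAT, 145 in BAT, and 80.7 CPM in cow sWAT, with the other classes at 48.4, 60.5, 83.1, 35.3, 23 and 14.9 CPM (log2 fold change 1.67, SE 0.37, adjusted p = 5.41e-04). Again RP fat was below the mean of its other classes, with its highest Ephb4 value in Notch3-only nuclei.

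Epha4, a receptor of both A and B ephrins, was at 35.3 CPM in mesPVAT 10x, 129 in mesPVAT Parse, 56.2 in RP fat, 146 in taPVAT, 148 in BAT, and 74.2 CPM in cow sWAT, with the other classes at 1.31, 35.2, 32.8, 27.9, 25.6 and 22.6 CPM (log2 fold change 2.70, SE 0.43, adjusted p = 3.39e-07). It was above the mean of the others in 5 of 5 rat libraries, and in RP fat it was lower than in Pdgfra-only nuclei. Epha4 was also the 1 gene lowered in the Ptprc-only class (adjusted p = 0.0247 by edgeR), with 1 UMI there and 208 in the other classes of the 5 rat libraries. That lowered call was lost with DESeq2, without taPVAT, without mesPVAT Parse, and at 2 or more UMIs of the class gene. Sema6b, a close relative of Sema6a, was at 70.6 CPM in mesPVAT 10x, 54.4 in mesPVAT Parse, 37.4 in RP fat, 57.5 in taPVAT, 60.6 in BAT, and 35.3 CPM in cow sWAT, with the others at 0, 11.9, 13, 17.3, 13.8 and 9.35 CPM (log2 fold change 2.21, SE 0.48, adjusted p = 4.67e-04). It was highest in endothelial nuclei in all 6 libraries, on 50 UMIs in the rat. Sema7a, a lipid-anchored semaphorin, was at 70.6 CPM in mesPVAT 10x, 34 in mesPVAT Parse, 18.7 in RP fat, 57.5 in taPVAT, 77.5 in BAT, and 51.2 CPM in cow sWAT, with the others at 46.8, 38, 39.1, 8.81, 8.33 and 14.4 CPM (log2 fold change 1.75, SE 0.46, adjusted p = 0.00511). Only 3 of 5 rat libraries were above the mean of the others for Sema7a, since mesPVAT Parse and RP fat were lower in endothelial nuclei. The call was lost without BAT or without taPVAT.

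**Figure D2:**
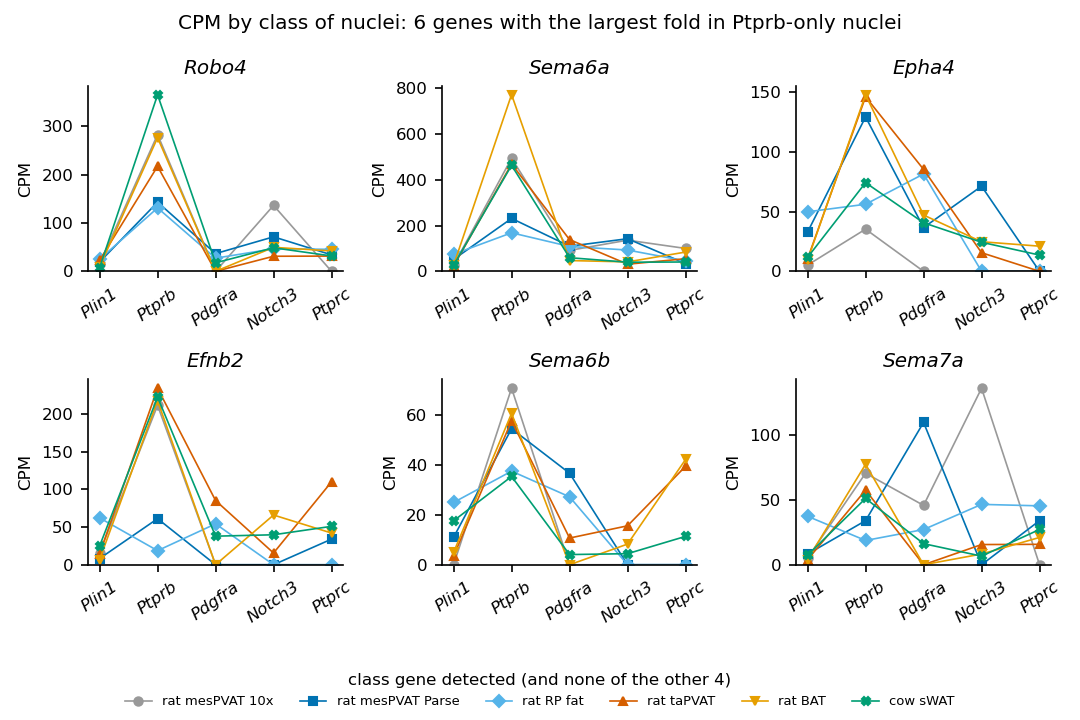
CPM of the 6 guidance genes with the largest fold in the endothelial class, by class of nuclei (x axis, named by class gene); a line joins the 5 classes of 1 library and has no other meaning. Robo4 and Sema6a peak in Ptprb-only nuclei in all 6 libraries (131 to 365 CPM and 168 to 773 CPM), while Efnb2, Epha4 and Sema7a do not peak there in RP fat.

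The plexins of the list formed a group of receptors with smaller folds. Plxnd1 was at 600.2 CPM in mesPVAT 10x, 489.8 in mesPVAT Parse, 337 in RP fat, 593 in taPVAT, 530.5 in BAT, and 436 CPM in cow sWAT in endothelial nuclei, with the others at 332, 256, 141, 159.8, 200.03 and 271 CPM (log2 fold change 1.34, SE 0.29, adjusted p = 2.76e-04). It was above the mean of the others in all 6 libraries. Plxna2 lay between 168 and 826 CPM over the 5 rat libraries against 88.6 to 221 for the other classes (log2 fold change 1.49, SE 0.31, adjusted p = 1.92e-04; above the mean of the others in 4 of 5). Plxna4 lay between 155 and 1448 CPM over the 5 rat libraries against 108 to 271 for the other classes (log2 fold change 1.14, SE 0.30, adjusted p = 0.00606; above the mean of the others in 5 of 5). Of these, Plxna2 lost its call without BAT, and Plxna4 without mesPVAT 10x or without taPVAT. Nrp2 lay between 106 and 346 CPM over the 5 rat libraries against 40.4 to 176 for the other classes (log2 fold change 1.00, SE 0.32, adjusted p = 0.0359; above the mean of the others in 5 of 5), and its call was lost without BAT, without mesPVAT Parse or without taPVAT. Sema3g, a secreted semaphorin of endothelium, lay between 0 and 54.4 CPM over the 5 rat libraries against 0 to 28.3 for the other classes (log2 fold change 1.75, SE 0.54, adjusted p = 0.0276; above the mean of the others in 3 of 5), on 31 UMIs in endothelial nuclei, and its call was lost without BAT, without mesPVAT Parse, without taPVAT or with DESeq2. Ephb4 and Sema7a also lost theirs without BAT. Nrp1 was not called in any class (log2 fold change 0.51, SE 0.28, adjusted p = 0.379 in endothelial nuclei), although DESeq2 called it raised in both endothelial and adipocyte nuclei.

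Promoter sequences were given in RefSeq (GRCr8, 250 bases before to 50 after the start) for 53 of the 68 genes and for 10 of the 13 raised in endothelial nuclei. The hexamer AGGAAG, searched on both strands (reverse CTTCCT), holds the GGAA core that ETS factors of endothelial cells bind. It was present in 4 of the 10 promoters (Plxnd1, Robo4, Sema3g and Sema6a), 40% of them, beside 34.5% of all 33469 promoter entries and 33.3% of the 54 entries of the guidance genes. CCGGAA, another hexamer with that core, was in 0 of the 10 (15% of all entries), and AGATAA, a hexamer bound by GATA factors that overlaps neither, was in 1 of the 10 (Sema6b, 11.6% of all). The promoters of a receptor of each kind, Robo4 and Plxnd1, and of the secreted ligand Sema3g are shown, with AGGAAG or its reverse in capitals, 5′ to 3′ on the strand of the gene. A match is a description of these letters only.
Robo4 promoter, chr8:45308489-45308788, strand +: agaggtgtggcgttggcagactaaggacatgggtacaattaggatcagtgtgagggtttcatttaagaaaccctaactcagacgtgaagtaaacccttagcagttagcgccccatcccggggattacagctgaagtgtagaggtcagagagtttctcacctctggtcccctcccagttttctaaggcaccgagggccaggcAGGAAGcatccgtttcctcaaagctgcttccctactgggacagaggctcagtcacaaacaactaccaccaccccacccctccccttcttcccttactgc
Plxnd1 promoter, chr4:150715138-150715437, strand -: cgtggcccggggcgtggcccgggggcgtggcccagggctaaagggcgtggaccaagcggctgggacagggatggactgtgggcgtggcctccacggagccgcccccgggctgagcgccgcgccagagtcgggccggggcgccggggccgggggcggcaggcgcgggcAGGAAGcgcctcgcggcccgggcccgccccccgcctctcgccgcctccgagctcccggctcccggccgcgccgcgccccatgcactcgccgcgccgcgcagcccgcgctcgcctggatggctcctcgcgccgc
Sema3g promoter, chr16:6419775-6420074, strand +: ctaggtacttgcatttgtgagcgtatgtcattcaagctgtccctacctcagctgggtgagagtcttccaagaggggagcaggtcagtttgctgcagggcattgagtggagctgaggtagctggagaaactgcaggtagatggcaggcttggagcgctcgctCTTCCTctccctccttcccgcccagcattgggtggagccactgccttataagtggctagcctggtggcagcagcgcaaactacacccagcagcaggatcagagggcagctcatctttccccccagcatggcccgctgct

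The 6 genes lowered in endothelial nuclei were Epha10 (0 UMIs there and 31 in the other classes), Sema4b, Slit3, Plxnb2, Plxna1 and Neo1. Slit3 was at 353 CPM in mesPVAT 10x, 319.7 in mesPVAT Parse, 599 in RP fat, 354 in taPVAT, 96.9 in BAT, and 186 CPM in cow sWAT in endothelial nuclei, with the others at 3374, 824, 644, 1225, 1819.8 and 809.8 CPM (log2 fold change -1.78, SE 0.51, adjusted p = 0.0371). Every library was below the mean of its other classes. Slit3 was highest in Pdgfra-only or Notch3-only nuclei in 5 of the 6 libraries, with 6915 CPM in mesPVAT 10x, 1171 in mesPVAT Parse, 679 in RP fat, 2337 in taPVAT, 1790.0 in BAT, and 1212 CPM in cow sWAT in Pdgfra-only nuclei and 2996 CPM in mesPVAT 10x, 927 in mesPVAT Parse, 419 in RP fat, 1619.6 in taPVAT, 4526 in BAT, and 1444 CPM in cow sWAT in Notch3-only nuclei, and passed the test in neither (adjusted p = 0.0899 and 0.113 by edgeR), though with TMM factors it passed in both. RP fat, where Plin1-only nuclei were highest, was the exception. Neo1, the netrin and RGM receptor, was lowered in endothelial nuclei (log2 fold change -1.29, SE 0.38, adjusted p = 0.0193), as was Sema4b (log2 fold change -2.31, SE 0.55, adjusted p = 0.00164). With TMM factors 2 of these 6 kept their call, and with DESeq2 3 did. Sema4b was raised in adipocyte nuclei and Plxnb2 in Ptprc-only nuclei, so their lowered calls here are not independent of those.

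With UMI totals as library sizes, adipocyte nuclei held few raised guidance genes and many lowered ones. There were 3 raised of 58 (5.17%, beside 9.81% of all genes) and 17 lowered (29.3%, beside 12.2% of all genes), with a median log2 fold change of -0.72 over the 58 and -0.07 over all genes. This split depends on the scaling: TMM factors move the median of all genes to 0.58 and give 8 raised and 9 lowered members, with 3456 genes raised and 641 lowered over all in place of 1168 and 1458. DESeq2 gave 7 raised and 4 lowered members, with 2622 genes raised and 368 lowered over all. The 17 lowered members became 8 without BAT, 8 without taPVAT, and 10 at 2 or more UMIs of the class gene. Over all genes the 1458 lowered became 687, 577 and 1153 in the same order.

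Efna5 was the guidance gene of adipocytes with most UMIs. In Plin1-only nuclei it was at 2105 CPM in mesPVAT 10x, 247 in mesPVAT Parse, 212 in RP fat, 1136 in taPVAT, 970.0 in BAT, and 826 CPM in cow sWAT, with the other classes at 575, 91, 166, 80, 112 and 115 CPM (log2 fold change 2.63, SE 0.45, adjusted p = 1.20e-04). The gap was widest in taPVAT, BAT and the cow and narrow in RP fat, where Ptprb-only nuclei were higher at 243 CPM. In mesPVAT 10x the other classes held much Efna5, up to 1089.6 CPM in Notch3-only nuclei. There the 10 adipocyte markers summed to 3434 to 9126 CPM in those classes, against 18478 CPM in Plin1-only nuclei, and the part of this in the Efna5 levels was not tested. Every setting tried kept the Efna5 call.

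Sema4b, a membrane semaphorin, was at 125 CPM in mesPVAT 10x, 35.6 in mesPVAT Parse, 37.4 in RP fat, 141 in taPVAT, 142 in BAT, and 2.93 CPM in cow sWAT in Plin1-only nuclei, with the other classes at 91.9, 33.1, 11.5, 73.4, 47.2 and 7.71 CPM (log2 fold change 1.25, SE 0.35, adjusted p = 0.00405). It was high in both brown fats and in mesPVAT 10x, where Notch3-only and Ptprc-only nuclei were higher still, and at 2.88 to 14.4 CPM in the cow's classes. The call was lost without BAT or without taPVAT. Sema3b, a secreted semaphorin, rested on 28 UMIs in adipocyte nuclei against 3 in all other rat classes together (log2 fold change 3.52, SE 1.18, adjusted p = 0.0211), so the fitted fold is uncertain and no bound. It was not called without any 1 of BAT, RP fat, mesPVAT Parse or taPVAT, nor with DESeq2 or at least 2 UMIs of the class gene. Its UMIs were barely above the 30 that the fit required. Without RP fat, 24 of the 25 raised calls were compared again and all were kept, so Sema3b dropped out of the test there. It may have dropped out in the other settings too, so these losses are not read as failed tests. In the cow Sema3b was at 121 CPM in Plin1-only and 171 CPM in Pdgfra-only nuclei.

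The 17 genes lowered in adipocyte nuclei had log2 fold changes from -2.46 to -0.87. By role they were 7 semaphorins (Sema3g, Sema5a, Sema6a, Sema6b, Sema6c, Sema6d and Sema7a), 3 plexins (Plxna4, Plxnb1 and Plxnb2), 4 Eph and ephrin genes (Efnb1, Efnb2, Epha2 and Ephb4), both netrins (Ntn1 and Ntn4) and Robo4. All but Sema6c, Sema6d, Efnb1 and Epha2 were also raised in another class, so most of these lowered calls are not independent of the raised ones. Of the 17, 9 were also lowered with TMM factors and 4 with DESeq2. Sema6d, a membrane semaphorin that binds Plxna1, was at 52.2 CPM in mesPVAT 10x, 30.1 in mesPVAT Parse, 49.8 in RP fat, 21.4 in taPVAT, 12.3 in BAT, and 16.1 CPM in cow sWAT in Plin1-only nuclei, with the other classes at 82.2, 78.1, 39.3, 132, 259.5 and 92.9 CPM (log2 fold change -1.98, SE 0.45, adjusted p = 6.30e-04). Only RP fat was above the mean of its other classes.

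Stromal progenitor nuclei had 4 raised genes of 58 (6.9%, beside 2.24% of all genes) and 0 lowered by edgeR (0.143% of all genes, with 2 at an unadjusted p under 0.05, and 1 each with TMM factors and DESeq2). All genes gave 267 raised and 17 lowered here, 212 and 63 with TMM factors (5 and 1 members), and 112 and 91 with DESeq2. Among the 4 raised genes, 3 are secreted ligands: Slit2, Sema3c and Ntn1. The other is Ephb2, a receptor of B ephrins. Slit2 was at 916 CPM in mesPVAT 10x, 73.2 in mesPVAT Parse, 81.5 in RP fat, 534 in taPVAT, 188 in BAT, and 86.7 CPM in cow sWAT in Pdgfra-only nuclei, with the other classes at 55.9, 87.1, 207, 62.5, 9.04 and 61.3 CPM (log2 fold change 2.39, SE 0.50, adjusted p = 0.00301). It was high in mesPVAT 10x, taPVAT and BAT and below the mean of the other classes in both white Parse libraries of the rat. In this class 3 UMIs are 141 CPM in BAT, 110 in mesPVAT Parse and 81.5 in RP fat, so the values there rest on few UMIs. Without taPVAT, Slit2 was the 1 of the 4 that kept its call.

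Sema3c was at 687 CPM in mesPVAT 10x, 109.8 in mesPVAT Parse, 109 in RP fat, 395 in taPVAT, 141 in BAT, and 1166 CPM in cow sWAT in Pdgfra-only nuclei, with the others at 361, 64.5, 93.2, 20.7, 22.1 and 216 CPM (log2 fold change 2.17, SE 0.38, adjusted p = 1.65e-05). Every library was above the mean of its other classes, and in mesPVAT 10x the nuclei with no class gene were as high, at 700.5 CPM; their 4 mesothelial markers summed to 1076 CPM, beside 283 to 681 CPM in the classes, and the part of this was not tested. Ntn1, the secreted netrin that binds Dcc, Neo1 and the Unc5 receptors, was raised in both stromal and endothelial nuclei. In Pdgfra-only nuclei it was at 275 CPM in mesPVAT 10x, 183 in mesPVAT Parse, 299 in RP fat, 235 in taPVAT, 236 in BAT, and 78.6 CPM in cow sWAT (log2 fold change 1.94, SE 0.38, adjusted p = 1.48e-04). In Ptprb-only nuclei it was at 529.6 CPM in mesPVAT 10x, 136 in mesPVAT Parse, 131 in RP fat, 164 in taPVAT, 89.6 in BAT, and 73.5 CPM in cow sWAT (log2 fold change 1.32, SE 0.33, adjusted p = 0.00338). The endothelial call of Ntn1 was lost without mesPVAT 10x, without taPVAT or with the cow added, and the stromal call without taPVAT or with the cow added. The Ptprb-only value was the higher in mesPVAT 10x and the Pdgfra-only value in the other rat libraries. Ephb2 lay between 109 and 213 CPM over the 5 rat libraries against 5.22 to 148 for the other classes (log2 fold change 1.94, SE 0.46, adjusted p = 0.00342; above the mean of the others in 4 of 5). Pdgfra-only nuclei of BAT were only 18, with 21229 UMIs in all.

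Mural nuclei had 3 raised genes of 58 (5.17%, beside 2.8% of all genes) and 0 lowered by edgeR (0.126% of all genes, with 1 at an unadjusted p under 0.05, and 0 with DESeq2). All genes gave 333 raised and 15 lowered, 257 and 79 with TMM factors (3 and 0 members), and 118 and 35 with DESeq2. Ntn4, a laminin-like netrin of basement membranes, was at 0 CPM in mesPVAT 10x, 107 in mesPVAT Parse, 139.7 in RP fat, 374 in taPVAT, 297 in BAT, and 84.1 CPM in cow sWAT in Notch3-only nuclei, with the others at 34.1, 51.7, 60.8, 37.8, 37.8 and 42.3 CPM (log2 fold change 2.82, SE 0.40, adjusted p = 2.25e-08). It was highest in taPVAT and BAT, the libraries where the muscle markers were also high in this class, and their part in this result was not tested. The 0 in mesPVAT 10x allows up to 409 CPM. In the cow Ntn4 was higher in Pdgfra-only nuclei (90.8 CPM). Plxnb1, the receptor of Sema4d, rested on 18 UMIs in Notch3-only nuclei and was at 136 CPM in mesPVAT 10x, 35.6 in mesPVAT Parse, 0 in RP fat, 77.9 in taPVAT, 90.9 in BAT, and 27.6 CPM in cow sWAT (log2 fold change 2.58, SE 0.57, adjusted p = 9.47e-04). Sema5a, a membrane semaphorin that binds Plxna1 and Plxna3, was at 409 CPM in mesPVAT 10x, 107 in mesPVAT Parse, 419 in RP fat, 93.4 in taPVAT, 256 in BAT, and 1131 CPM in cow sWAT (log2 fold change 1.32, SE 0.37, adjusted p = 0.0182). The cow value of Sema5a stood far above its other classes, at 84.3 to 157 CPM. Plxnb1 and Sema5a lost their calls without BAT or without taPVAT, and Sema5a also with TMM factors or DESeq2.

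Ptprc-only nuclei had 2 raised genes of 58 (3.45%, beside 5.47% of all genes) and 1 lowered (Epha4, above; 1.72%, beside 0.689% of all genes). All genes gave 651 raised and 82 lowered, and 533 and 162 with TMM factors (3 and 3 members). Sema4d, the semaphorin known as CD100 on T cells, was at 50 CPM in mesPVAT 10x, 34 in mesPVAT Parse, 45.4 in RP fat, 197 in taPVAT, 126 in BAT, and 93 CPM in cow sWAT, with the others at 63.1, 25.6, 89, 14.6, 6.55 and 36.8 CPM (log2 fold change 2.30, SE 0.58, adjusted p = 0.00681). It was high in taPVAT and BAT and below the mean of the other classes in mesPVAT 10x and RP fat, and DESeq2 did not call it. Plxnb2, a plexin of macrophages and many other cells, was at 0 CPM in mesPVAT 10x, 119 in mesPVAT Parse, 90.9 in RP fat, 158 in taPVAT, 105 in BAT, and 66.9 CPM in cow sWAT, with the others at 3.92, 27.6, 46, 40.4, 19.5 and 77.9 CPM (log2 fold change 2.08, SE 0.44, adjusted p = 2.86e-04). It was at 0 in mesPVAT 10x, where 3 of the 19984 UMIs are 150.1 CPM, and in the cow it did not exceed its other classes. Both calls were lost without taPVAT, and both were kept without RP fat.

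**Figure D3:**
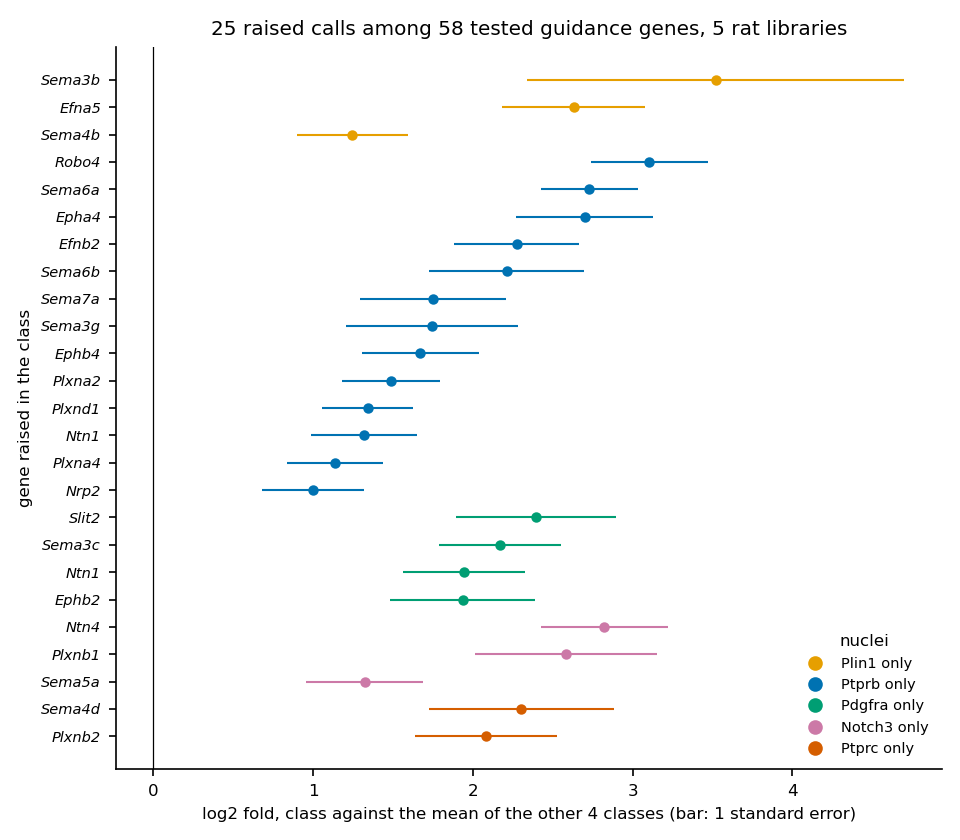
Log2 fold change of each raised call, a class against the mean of the other 4 classes over the 5 rat libraries; bars are 1 standard error and colours the class gene. The 13 calls of Ptprb-only nuclei run from 1.00 (Nrp2) to 3.10 (Robo4), and the largest value, Sema3b in Plin1-only nuclei (3.52), has the widest bar.

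The 26 genes called in no class were Dcc, Efna1, Efna2, Efnb3, Epha3, Epha5, Epha6, Epha7, Ephb1, Ephb6, Nrp1, Plxna3, Plxnc1, Robo1, Robo2, Sema3a, Sema3d, Sema3e, Sema3f, Sema4c, Sema5b, Slit1, Unc5a, Unc5b, Unc5c and Unc5d. Their fitted log2 fold changes ran from -4.05 to 2.72 over the 5 classes. Nrp1, which had the most UMIs of them in taPVAT and BAT, was at 353 CPM in mesPVAT 10x, 401 in mesPVAT Parse, 243 in RP fat, 1749 in taPVAT, 2109.9 in BAT, and 799 CPM in cow sWAT in Ptprb-only nuclei and 345 CPM in mesPVAT 10x, 274 in mesPVAT Parse, 299 in RP fat, 1014 in taPVAT, 909 in BAT, and 349.8 CPM in cow sWAT in Plin1-only nuclei. It was high in both of these classes of the brown fats. TMM factors or DESeq2 called some of the 26 raised, besides Nrp1. In adipocyte nuclei these were Sema3f and Unc5b by both and Unc5a by TMM factors. In endothelial nuclei they were Sema3a by both, Efna1 by TMM factors and Unc5b by DESeq2. In Ptprc-only nuclei TMM factors called Plxnc1. The 10 genes not tested had 8 (Efna4) to 78 (Sema4a) UMIs over the 5 rat libraries, nuclei of no class included.

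Other genes of these pathways, inside the cell and at its surface and listed with earlier results known, were fitted in the same way. Over all genes tested, 9.81% were raised and 12.2% lowered in adipocyte nuclei, 5.23% and 1.34% in endothelial nuclei, 2.24% and 0.143% in stromal, 2.80% and 0.126% in mural, and 5.47% and 0.689% in Ptprc-only nuclei. The adipocyte counts depend on the scaling, and high levels in another class lower the adipocyte fold of a gene. TMM factors gave 3 raised and 7 lowered semaphorin signalling genes, 0 and 0 for Slit, 3 and 3 for netrin, and 3 and 2 for Eph signalling. DESeq2 gave 3 and 4, 0 and 0, 3 and 1, and 2 and 2 in that order. Of 16 semaphorin and plexin signalling genes tested, 1 was raised and 7 lowered in adipocyte nuclei. The raised one was Mical3, an actin-oxidizing enzyme (log2 fold change 1.51, adjusted p = 9.29e-07), and among the lowered were the CRMP genes Dpysl2 (-2.10) and Dpysl3 (-1.97) and the kinase Limk1 (-2.42). Endothelial nuclei had 1 of the 16 raised, Rnd1 (3.25), mural nuclei 1, Mical2 (1.81), Ptprc-only nuclei 1 raised, Mical1 (1.70), and 1 lowered, Mical3 (-1.54), and stromal nuclei 0 by edgeR, with 1 at an unadjusted p under 0.05 and 0 by DESeq2. Of 11 Slit and Robo signalling genes, 4 were lowered in adipocyte nuclei (Enah, Srgap1, Srgap2 and Vasp, from -1.34 to -0.91), none of which TMM factors or DESeq2 called, and 0 were called by edgeR in each other class, where 1 to 5 had an unadjusted p under 0.05 and DESeq2 called at most 1. Of 12 netrin signalling genes, 4 were lowered in adipocyte nuclei (Ablim3, Flrt2, Fyn and Ntng1), 2 raised in endothelial nuclei (Ablim3 at 2.34 and Ptk2, the focal adhesion kinase, at 1.10), and Rgma, a ligand of Neo1, was lowered in endothelial (-2.52) and raised in stromal nuclei (1.70). Ptprc-only nuclei had Dscaml1 raised (1.57) and Trio lowered (-1.04), and mural nuclei had 0 calls by edgeR, 0 at an unadjusted p under 0.05 and 0 by DESeq2. Of 11 Eph and ephrin signalling genes, 3 were lowered in adipocyte nuclei (Adam10, Kalrn and Vav3), Adam10 (1.35) and Kalrn (1.64) were raised and Vav2 lowered (-1.42) in endothelial nuclei, and Vav3, an exchange factor of immune cells, was raised in Ptprc-only nuclei (2.45). Stromal and mural nuclei had 0 of these 11 called by edgeR, with 0 and 2 at an unadjusted p under 0.05, and 0 by DESeq2.

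A group of receptors best known from neurons was called in no class and differed widely between libraries. They were grouped after their values were seen. Dcc, the netrin receptor of axons, was at 23.4 CPM in mesPVAT 10x, 301 in mesPVAT Parse, 458 in RP fat, 43.5 in taPVAT, 35 in BAT, and 94.2 CPM in cow sWAT over all nuclei. Robo1 was at 20.2 CPM in mesPVAT 10x, 295 in mesPVAT Parse, 498 in RP fat, 42.2 in taPVAT, 40.2 in BAT, and 171 CPM in cow sWAT. Robo2 was at 9.7 CPM in mesPVAT 10x, 239 in mesPVAT Parse, 329 in RP fat, 38.6 in taPVAT, 37.7 in BAT, and 141 CPM in cow sWAT. Both white Parse libraries of the rat were far above the rest for each of these. Epha6, an A-type Eph receptor, was at 19.4 CPM in mesPVAT 10x, 273 in mesPVAT Parse, 396 in RP fat, 42.9 in taPVAT, 27.5 in BAT, and 76.5 CPM in cow sWAT. Unc5d, a repulsive netrin receptor, was at 3.23 CPM in mesPVAT 10x, 168 in mesPVAT Parse, 265 in RP fat, 35.3 in taPVAT, 26.3 in BAT, and 49.4 CPM in cow sWAT. For all 5 the order was RP fat, mesPVAT Parse, cow sWAT and then the brown fats, with mesPVAT 10x lowest. The neighbours taPVAT and BAT were within 2-fold for each.

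Within each Parse library these receptors were found in several classes, at levels that ranged widely for some of them. In mesPVAT 10x, Unc5d was at 0 CPM in all 5 classes, and the median over the classes was 0 CPM for Dcc and Robo2. Dcc was at 326 to 499.8 CPM over the 5 classes of RP fat, at 214 to 392 CPM in mesPVAT Parse, at 28.8 to 126 CPM in taPVAT and at 22.1 to 126 CPM in BAT. Robo1 ranged from 182 to 706 CPM over the classes of RP fat and from 8.26 to 141 CPM in BAT, and Unc5d from 35.6 to 204 CPM in mesPVAT Parse and from 0 to 84.2 CPM in BAT. Of Dcc, nuclei with no class gene held 476 CPM in RP fat and 323 in mesPVAT Parse, and 90.5 and 117 in taPVAT and BAT. Over the 5 classes, the fitted log2 fold changes of Dcc ran from -0.77 to 0.78 (smallest adjusted p = 0.0776), and those of Robo2 from -1.01 to 0.72 (smallest 0.107). A p that misses the threshold does not show equal levels. In taPVAT, BAT and the cow, Plin1-only nuclei had the lowest or among the lowest values of Dcc, at 28.8, 22.1 and 51.2 CPM. The median depth was 213 UMIs per nucleus in RP fat and 346 in mesPVAT Parse, against 1246 to 3530 in the other Parse libraries. The part of depth or of background RNA in these levels was not tested. In mesPVAT 10x, at 161 UMIs per nucleus, the same genes were low. All 5 are long genes, spanning 547 kb (Unc5d) to 1568 kb (Robo2) in RefSeq.

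**Figure D4:**
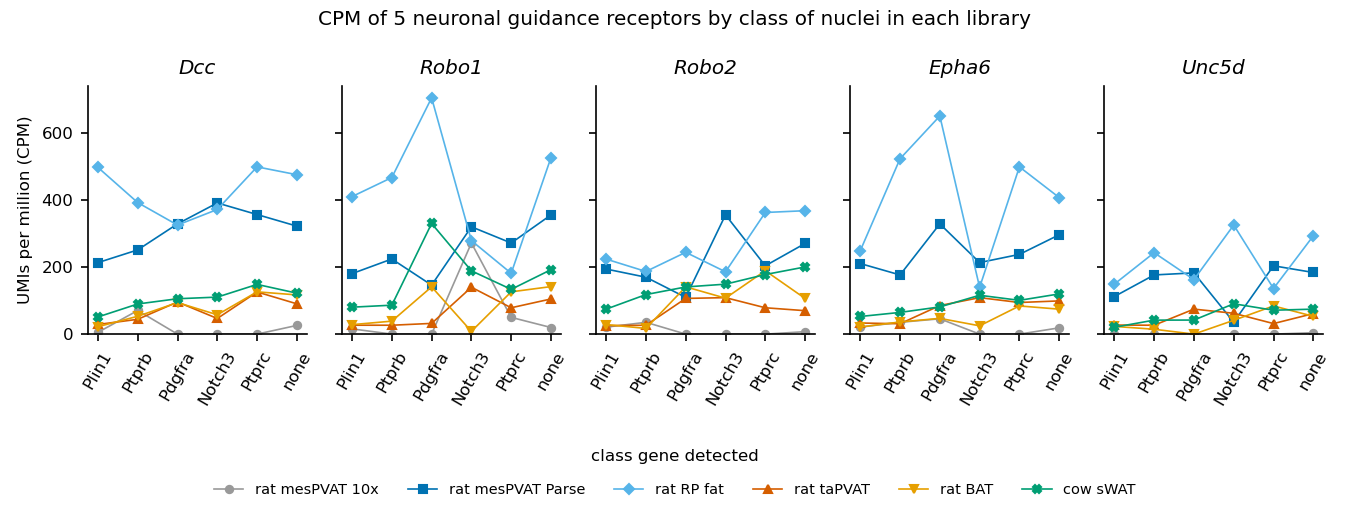
CPM of Dcc, Robo1, Robo2, Epha6 and Unc5d by class of nuclei in each library, with the nuclei that hold no class gene as the sixth position; a line joins the values of 1 library. Values in RP fat and mesPVAT Parse lie above those of the brown fats in most positions (Dcc 326 to 499.8 and 214 to 392 CPM over the 5 classes, against 22.1 to 126 CPM in BAT).

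Pairs of libraries were set side by side, with no test since each is 1 library. A gene was counted when its CPM differed by 2-fold or more and it had at least 10 UMIs over both libraries. For the brown fats, 7 of 67 genes were higher in taPVAT than in BAT (10.4%, beside 8.54% of all genes) and 0 were higher in BAT (beside 2.48% of all genes). The 7 were Slit2 (76.7 against 26.4 CPM, 2.90-fold), Sema3b (4.90 against 1.74, 2.82-fold), Sema3c (39.2 against 14.1, 2.78-fold), Sema3d, Epha2, Epha3 and Epha10, the last 4 at 2.09-fold to 2.44-fold. Slit2 and Sema3c are 2 of the 4 genes raised in Pdgfra-only nuclei. The others, Ntn1 (1.23-fold) and Ephb2 (1.78-fold), were under 2-fold. Pdgfra-only nuclei were 2.70% of the nuclei in taPVAT and 0.667% in BAT, and the part of this in the sums was not tested. The genes with the most UMIs were close: Nrp1 at 1.03-fold, Plxna2 at 0.997-fold, Plxnd1 at 1.01-fold and Efna5 at 1.11-fold of BAT.

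Between the white Parse libraries, as labelled, 1 of 66 genes was higher in mesPVAT (1.52%, beside 6.38% of all genes) and 4 were higher in RP fat (6.06%, beside 13.1%). The 1 was Sema6b, at 27.8 against 11.8 CPM. The 4 were Plxnb3 (8.28 against 1.81 CPM, a ratio of 4.57 with an exact 95% interval of 1.04 to 27.4 on 7 and 3 UMIs), Epha8 (22.5 against 7.24), Efnb3 (33.1 against 15.1) and Ephb3 (13 against 6.04), all on fewer than 30 UMIs in each library. The median log2 ratio over the 66 was -0.32, beside -0.29 over all genes.

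The 2 libraries labelled mesPVAT, on different platforms, gave the widest differences of the 3 pairs. Of 65 genes, 9 were higher in mesPVAT 10x (13.8%, beside 20.8% of all genes) and 31 higher in mesPVAT Parse (47.7%, beside 37.9%), and the median log2 ratio was -0.93, beside -0.34 over all genes. Higher in mesPVAT 10x were Plxna3 (58.2 against 3.02 CPM, 19.3-fold), Sema3f (373 against 53.7, 6.93-fold), Efna5 (6.83-fold), Sema3c (6.70-fold), Sema4c (5.01-fold), Slit3 (3.34-fold), Sema4b, Neo1 and Unc5b. Of these 9, 6 are ligands. Higher in mesPVAT Parse were Unc5d (168 against 3.23 CPM, a ratio of 52.1 with an exact 95% interval of 20.1 to 193 on 4 UMIs in 10x), Slit1 (50.7 against 1.62, a ratio of 31.4 with an interval of 8.42 to 263 on 2 UMIs) and Robo2 (239 against 9.70, 24.7-fold). Receptors made up 20 of the 31, beside 34 of the 65 genes compared, among them Epha5 (11.7-fold), Epha6 (14.1-fold), Robo1 (14.6-fold), Unc5c (7.47-fold) and Dcc (12.8-fold). Efna2, Efnb3, Epha8 and Robo3 had no UMI in mesPVAT 10x, where 3 counts are 2.42 CPM. Set against those 3 counts, Efna2 was 4.23-fold and Efnb3 6.22-fold higher in mesPVAT Parse. The counting error of mesPVAT Parse is not in these values. Unc5d, Robo2, Epha5, Epha6, Robo1, Unc5c and Dcc span 354 kb (Unc5c) to 1568 kb (Robo2), but shorter receptors were also higher in mesPVAT Parse. Among these were Unc5a (22.4-fold, 55.8 kb), Epha10 (20.2-fold, 36 kb), Epha7 (17.2-fold, 153 kb) and Epha4 (10.8-fold, 143 kb). They had 1, 1, 3 and 7 UMIs in mesPVAT 10x, in that order. Over all genes, the median log2 ratio of mesPVAT Parse to mesPVAT 10x was 0.0018 for 6951 genes spanning under 30 kb and 1.64 for 546 genes over 300 kb. Among the guidance genes it was 1.04 for 25 genes under 30 kb and 0.32 for 15 over 300 kb. Spearman's rho between span and this ratio was 0.25 over 13863 genes and 0.05 over 65 guidance genes, all from the same 2 libraries, and the part of gene span in these differences was not tested. The platforms also differ in batch, nuclei isolation, sorting and genome annotation, which cannot be told apart.

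**Figure D5:**
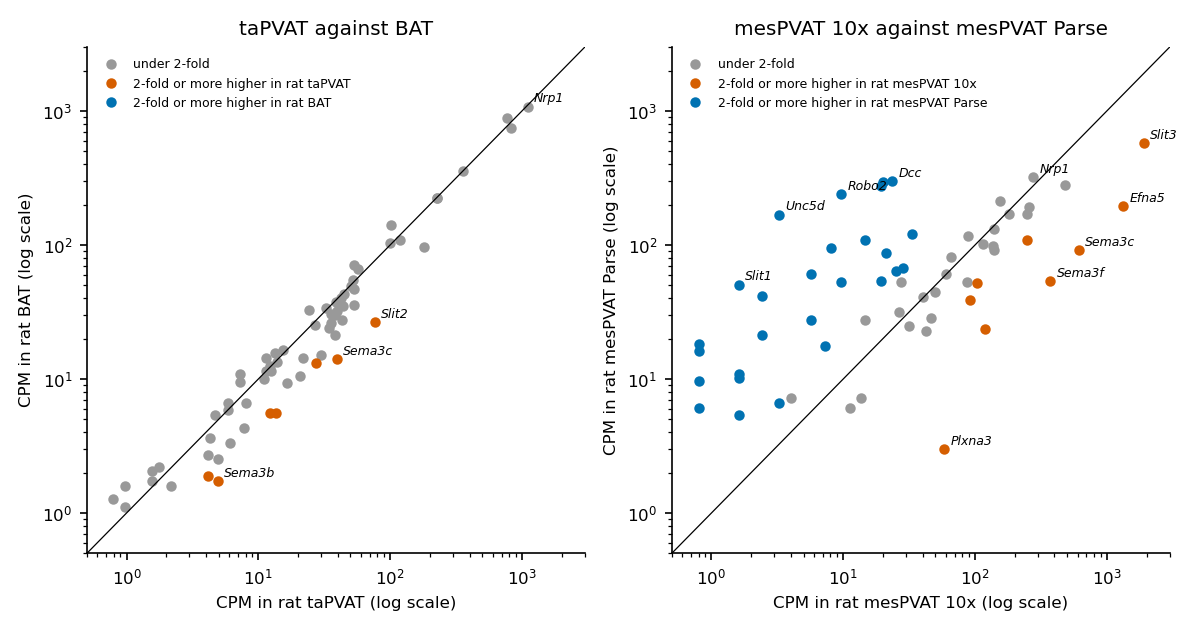
CPM in taPVAT against BAT (left) and in mesPVAT 10x against mesPVAT Parse (right), both axes on a log scale. Only guidance genes with at least 10 UMIs over both libraries enter. The line marks equal levels and colours mark genes 2-fold or more apart. Of the genes compared, the 4 at 0 in mesPVAT 10x are not drawn. The left panel hugs the line (7 of 67 genes apart), and the right panel does not (40 of 65 genes apart).

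The cow entered beside the rat, since it is 1 library of another species. Its 8 highest genes by CPM, not corrected for length, were Nrp1, Slit3, Sema3c, Efna5, Plxnd1, Nrp2, Plxna2 and Sema5a, and all but Sema5a were among the top 12 of the rat. Of the 25 raised calls of the rat, 11 were above the mean of the other classes in 5 of 5 rat libraries and 21 in 4 or 5. Of the 25, 19 were above the mean of the other classes in the cow. They were 10 of 13 in endothelial, 3 of 4 in stromal and 3 of 3 in mural nuclei. Adipocyte nuclei had 2 of 3 and Ptprc-only nuclei 1 of 2. The shares of all raised rat genes that do the same were not counted, so these counts say nothing particular to the guidance genes. A test of the difference between cow and rat class effects, chosen after the data were seen, called 6 of 320 member and class combinations (1.88%), beside 0.603% of all 60865. With 1 cow library it assumes that the cow varies as the rat libraries do. The 6 involve Ntn1, Sema3c, Plxna2, Unc5b and Nrp2 and are given in the closing section.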

How the data were processed

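UMI count tables (counts, 1 row per nucleus) were deposited by the authors, made with the Parse pipeline for the Parse libraries and Cell Ranger for the 10x Genomics library. Raw reads were not analysed here. Parse sublibraries of 1 sample were joined. No nuclei were removed and no doublet caller was run. The 68 genes, the pathway lists and the tests were chosen with earlier results of these data known.

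Members were matched by symbol in any case. CPM is UMIs over all UMIs of the library or class, with exact 95% Poisson intervals, and counting intervals cover counting error only. For the class test, UMIs of 5 rat libraries by 5 classes (25 sums) were fitted with edgeR 4.0.16 in R 4.3.3 (quasi-likelihood, library as a term, genes with at least 30 UMIs, Benjamini-Hochberg over 11903 genes). TMM scaling was planned, but in simulated sums it moved unchanged genes (median log2 0.20 in the endothelial class, with 11 of the unchanged genes called), so totals were used as library sizes (-0.004, with 1 called), and TMM and DESeq2 1.42.0 were kept as alternatives. In that simulation of the endothelial class with 11903 genes, 18.5% of 200 genes changed 2-fold and 97.5% of 200 changed 4-fold were recovered, and with TMM 41% and 100%, with 21 unchanged genes called at 4-fold in place of 0. The changed genes and the medians were taken from genes with at least 200 UMIs. The class test takes genes from 30 UMIs, so recovery of members with fewer than 200 was not measured. The simulated sums had the same composition in every class, a case that favours totals, so the choice is not settled for classes that differ in composition. It departs from the planned main fit, and TMM counts are given beside each class. Residual degrees of freedom come from single libraries of different fats. Library pairs were described with no test.

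Genes named in the text are the 12 highest in the rat, up to 6 raised per class, the 8 highest in the cow and the 3 largest each way per pair, with further members named where a count is spelled out. Alternatives were no filter, the study's limits on nuclei, at least 2 UMIs of the class gene, the cow added, and each library left out. Gene spans and promoters came from RefSeq (GRCr8).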

Additional observations from a re-analysis of the deposited data

Results flagged for a closer look

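For 6 combinations of gene and class, the class effect (class against the mean of the other classes) differed between cow sWAT and the 5 rat libraries by edgeR's quasi-likelihood test of that difference. The test was chosen after the data were seen, and with 1 cow library it assumes that the cow varies like the rat libraries. Species, depot, sex and animal cannot be told apart in it.

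In the adipocyte class, Ntn1 differed most, by 5.25 on the log2 scale, cow minus rat (SE 0.63, adjusted p = 7.54e-11). Plin1-only nuclei of the cow held 566 CPM of this netrin against 56.2 CPM in the mean of its other classes, while those of the rat held 12.3 to 74.7 CPM and were below the mean of their other classes in 5 of 5 libraries. Sema3c differed by 2.55 in the same class (SE 0.64, adjusted p = 0.00823). The cow held 568 CPM against 365 CPM in the mean of its other classes, the highest of which reached 1166 CPM. The rat held 10.5 to 256 CPM, below the mean of the other classes in each library.

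Unc5b, a netrin receptor, differed by -4.55 in the adipocyte class (SE 1.05, adjusted p = 0.00289). The cow held 2.93 CPM against 77.7 CPM in its other classes, and the rat 51.1 to 141 CPM against 28.1 to 89.7 CPM. The cow value is under the 4.39 CPM that 3 UMIs make in this class. In the endothelial class it differed by 2.85 (SE 0.70, adjusted p = 0.0326), with 222 CPM in the cow against 22.9 CPM in its other classes, and 47.6 to 106 CPM in the rat. These results share their sums. Plxna2 differed by -2.91 in the adipocyte class (SE 0.79, adjusted p = 0.02). The cow held 54.2 CPM against 333 CPM in its other classes, and the rat 172 to 354 CPM against 116 to 267 CPM.

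Nrp2 differed by 3.68 in the Ptprc-only class (SE 0.67, adjusted p = 3.72e-04), with 809 CPM in the cow against 111 CPM in its other classes, and 45.4 to 190 CPM in the rat. The rat value includes RP fat, whose Ptprc-only nuclei did not carry the immune markers above other classes.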

How the results depend on the processing

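No paired analysis was possible because each condition is 1 library and the class comparison is already made within libraries. The number of guidance genes raised in endothelial nuclei stayed within 1.5 times of 13 under every alternative, and was 9 to 14 when 1 library was left out. In adipocyte nuclei the 3 raised genes became 8 with TMM factors, 7 with DESeq2, 5 at 2 or more UMIs of the class gene, and 1 to 3 with 1 library left out (1 without BAT or taPVAT). Part of the fall with 1 library left out is Sema3b, which dropped out of the test without RP fat and may have done so elsewhere. In stromal nuclei the 4 became 2 to 5 with 1 library left out (2 without taPVAT). In mural nuclei the 3 became 5 with no filter, 7 with the cow added, 6 at 2 or more UMIs, and 1 to 4 with 1 library left out (1 without BAT). In Ptprc-only nuclei the 2 became 1 with DESeq2, 5 with the cow added, 4 at 2 or more UMIs, and 0 to 3 with 1 library left out (0 without taPVAT). Without its gene with the most UMIs, the summed CPM was 8111 in mesPVAT 10x, 6119 in mesPVAT Parse, 6004 in taPVAT, 5717 in BAT and 6499 in cow sWAT, and with the study's limits on nuclei it was 5617 in mesPVAT Parse and 4914 in BAT. Between mesPVAT Parse and RP fat, 3 genes were 2-fold apart at a minimum of 30 UMIs, which tests fewer genes, in place of 5. None of the 25 raised calls changed sign in an alternative that gave an adjusted p. Lowered calls and genes not called were not checked for sign. The balance of calls in adipocyte nuclei turned from 3 raised and 17 lowered members to 7 and 4 with DESeq2, and evened to 8 and 9 with TMM factors. Relative to totals, TMM factors moved the median log2 of all genes to 0.58 in adipocyte, 0.13 in endothelial, -0.26 in stromal, -0.32 in mural and -0.03 in Ptprc-only nuclei. Depth limits the smallest classes, and the cause of these changes was not tested.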
